A study of Mus musculus with 8 samples.

Results

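Group 2 innate lymphoid-like cells (ILC2-like cells) of mouse skin were defined by transcripts alone, and 88 of 11118 filtered cells met the definition. A cell had 500 to 4000 genes, at most 20000 unique molecular identifiers (UMIs, each the count of 1 captured transcript) and at most 10% mitochondrial UMIs. It held a UMI of at least 2 of 7 defining genes, of which Il1rl1, Il13, Csf2, Areg, Calca and Il5 are described here, and a UMI of Ptprc, Gata3 or Il7r. The T cell genes Cd3e, Cd3d and Trac, the mast cell and basophil genes Cpa3, Mcpt4 and Mcpt8 and the macrophage gene C1qa were at 0, and the keratinocyte gene Krt14 was under 5 UMIs. The values of these genes in members were therefore set by the definition and are given as a description.

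The cells came from dorsal skin of 8 female BALB/c mice aged 14 to 16 weeks, 4 injected subcutaneously with PBMCsec (the secretome of irradiated human peripheral blood mononuclear cells) and 4 with vehicle. Each mouse gave 1 scRNAseq library, so the mouse was the replicate, and the treatments were compared to see whether these cells differed in number or in transcripts. The labels give no wounding, time point or control solution for these libraries, and all 8 are compared by treatment alone. Total depth was between 14753926 and 37880651 UMIs per library, while the members of a library held between 7988 and 84031 UMIs together. No pair of libraries shared more than 10 barcodes, at most 0.343% of the smaller library.

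ILC2s are lymphocytes without a rearranged antigen receptor that live in barrier tissues such as skin, gut and lung. They respond to alarmins released by damaged epithelium, chiefly IL-33 through its receptor ST2 (encoded by Il1rl1), and secrete the type 2 cytokines IL-5 and IL-13 together with GM-CSF (Csf2) and the epidermal growth factor family ligand amphiregulin (Areg). GATA3 and RORα are required for their development, IL-7 supports their survival, and in other tissues they have been described to respond to or make the neuropeptide CGRP (Calca).

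Of the secreted products that define these cells, Il13, Il5 and Csf2 lie on mouse chromosome 11. In GENCODE release M21 (GRCm38) Il13 covers chr11:53631324-53634702 on the minus strand, Il5 covers chr11:53720794-53725106 on the plus strand and Csf2 covers chr11:54247271-54249667 on the minus strand. As these secreted products are followed through the results, the 250 bases upstream of each RefSeq start (GRCm38.p6) are shown, written 5′ to 3′ on the strand of the gene. Capitals mark GATA-type letters, searched on both strands as AGATAA or AGATAG and also as TGATAA or else TGATAG, since GATA factors are known to bind such sequences. The windows are chr11:53634703-53634952 for Il13, chr11:53720544-53720793 for Il5 and chr11:54249900-54250149 for Csf2. Those of Il13 and Il5 adjoin the GENCODE starts. The Csf2 window lies further upstream, as its RefSeq start differs from the GENCODE start at 54249667.
Il13: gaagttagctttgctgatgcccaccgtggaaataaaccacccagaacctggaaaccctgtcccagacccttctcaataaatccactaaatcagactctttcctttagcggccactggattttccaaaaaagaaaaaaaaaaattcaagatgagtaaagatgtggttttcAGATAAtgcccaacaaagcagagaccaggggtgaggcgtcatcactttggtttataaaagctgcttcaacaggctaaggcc
Il5: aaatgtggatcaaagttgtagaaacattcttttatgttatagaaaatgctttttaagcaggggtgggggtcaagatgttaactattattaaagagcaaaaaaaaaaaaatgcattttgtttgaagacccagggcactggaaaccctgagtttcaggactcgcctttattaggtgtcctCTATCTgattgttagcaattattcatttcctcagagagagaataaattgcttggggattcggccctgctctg
Csf2: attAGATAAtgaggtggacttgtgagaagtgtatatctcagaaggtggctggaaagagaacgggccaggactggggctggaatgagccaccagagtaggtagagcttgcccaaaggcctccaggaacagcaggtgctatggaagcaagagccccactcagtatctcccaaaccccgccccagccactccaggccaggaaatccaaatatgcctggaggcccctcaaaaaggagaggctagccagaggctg
Each window held 1 match, which was AGATAA in Il13 and Csf2 and AGATAG on the opposite strand in Il5. Of all 32851 RefSeq windows of this length, 26.5% held at least 1 match, so such letters are common and no binding was measured here.

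The definition rested on a few transcripts per cell. At least 2 of the 7 genes were found in 233 cells, of which 230 also had Ptprc, Gata3 or Il7r. The T cell genes then removed 124 cells, the mast cell and basophil genes 13, C1qa 2 and Krt14 3. The 24 members with exactly 2 of the 7 genes stood just inside the threshold, with a median of 3549.5 UMIs per cell, Klrg1 in 37.5% and Il7r in 62.5%. The 193 cells with exactly 1 of the 7 genes that met all else stood just outside it, with a median of 8617 UMIs, Klrg1 in 2.59% and Il7r in 19.7%. Of the members, 22 held 3 of the genes, 17 held 4, 13 held 5, 11 held 6 and 1 held all 7. Calca was the only one missing in 7 cells.

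Of the markers, Gata3 was found in 88.6% of members (95% Clopper-Pearson interval from counting error alone, 80.1 to 94.4), Il1rl1 in 83.0% (73.4 to 90.1) and Il7r in 76.1%. Il5 was found in 58.0% of members, Areg in 52.3%, Csf2 in 51.1%, Il13 in 33.0% and Calca in 20.5%. For comparison, 1012 T cells were taken as cells with Ptprc and at least 2 of Cd3e, Cd3d, Cd3g and Trac, under the same limits on mast cell, macrophage and keratinocyte genes. These cells had Il1rl1 in 17.0%, Il5 in 4.15%, Csf2 in 4.35% and Il13 in 7.31%. Median depth was close, with 3629.5 UMIs per member and 3359.5 per T cell. In 3905 keratinocytes, which should lack Il13 and have a median of 9221 UMIs, Il13 was found in 0.0256% and Il5 in 0.0512%, which sets the share that free RNA gave. When every cell was thinned to 1000 UMIs, which left out 1 member and 6 T cells, Il1rl1 was found in 47.1% of members and 9.94% of T cells, and Il5 in 29.9% and 2.19%.

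**Figure D1:**
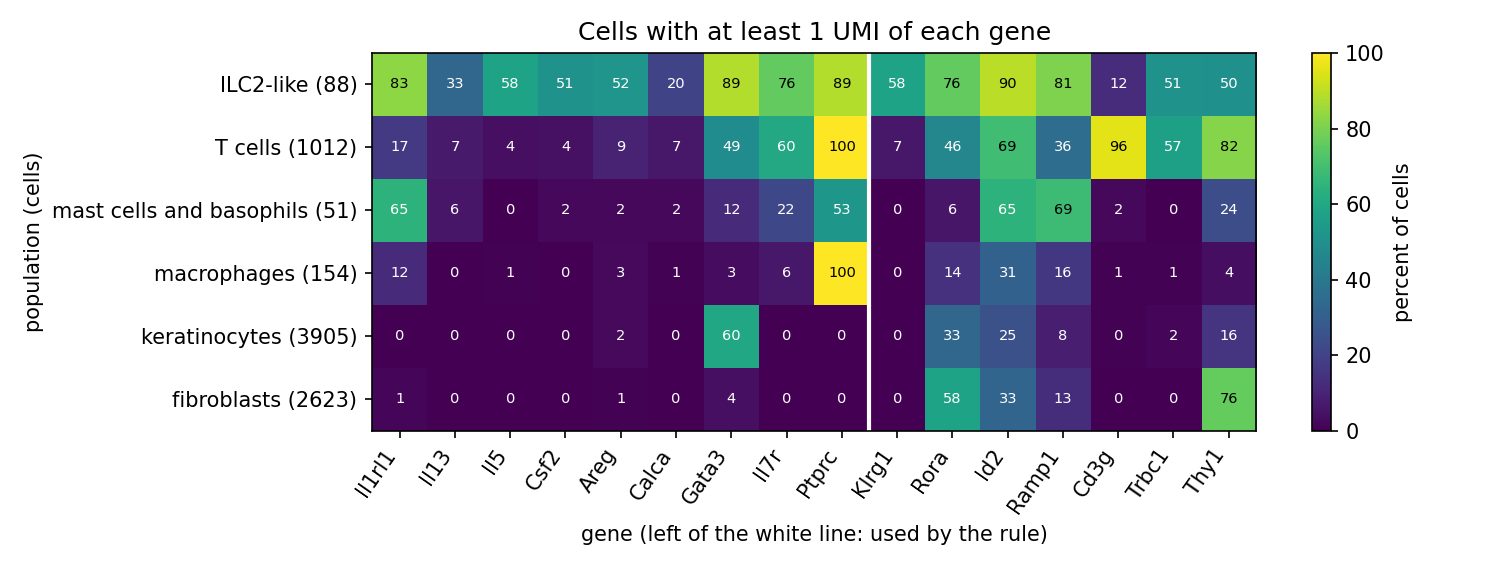
Percent of cells with at least 1 UMI of each gene (columns) in ILC2-like cells and 5 comparison populations (rows, with the number of cells). The genes left of the white line entered the definition; of the genes to its right, Klrg1 was found in 58.0% of ILC2-like cells and 6.52% of T cells.

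To see how far each gene was set by its own use in the definition, cells were chosen again by the other 6 genes. Il1rl1 was then found in 78.6% of 70 cells, Il5 in 57.0% of 86, Csf2 in 50.6% of 87, Areg in 46.8% of 79, Il13 in 32.2% of 87 and Calca in 17.6% of 85. Among all members Il1rl1 was found in 83.0%, and 70 of the 88 cells remained when it was not used. Mast cells and basophils, which also use ST2, had Il1rl1 in 64.7% of 51 cells but Il5 in 0% (0 of 51). Among members, 24 of the 29 cells with Il13 also held Il5 (82.8%), and 20 held Csf2 (69.0%), while 47.1% of the 51 Il5 cells held Il13.

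Transcripts of the secreted products were uneven between cells. The highest single cell held 55 of the 287 Il13 UMIs (19.2%), and 3 cells held 49.1%. For Areg the highest cell held 26.8% of 369 UMIs, for Calca 33.3% of 111, and for Csf2 9.04% of 719. Il1rl1 was spread more evenly, and its highest cell held 5.99% of 284 UMIs. The chemokine gene Ccl1 came almost wholly from 1 cell of PBMCsec library 3, with 104 of 118 UMIs (88.1%). Il9, Il3, Xcl1, Ccl3 and Penk were at 0 in the 88 cells, a count that allows a share of up to 3.41% of cells with a UMI, taking 3 counts as the limit. Il4, the other type 2 cytokine, was found in 2.27% of members and in 52.9% of mast cells and basophils.

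Genes that the definition did not use are compared with T cells as a description, without a test, because cells chosen by some transcripts also differ in others. Klrg1, an inhibitory receptor of mature ILC2s, was found in 58.0% of members and 6.52% of T cells, and its level was above that of T cells in 7 of 8 libraries. Its 8 values in members were 52.9, 351, 288 and 753 CPM (UMIs of the gene in 1000000 UMIs) after PBMCsec and 379, 589, 178 and 252 CPM after vehicle. PBMCsec library 1 was the lowest and the groups overlapped. Ramp1, a subunit of the CGRP receptor, was found in 80.7% of members and 35.7% of T cells. Its level was 477, 734, 625 and 753 CPM after PBMCsec and 795, 669, 686 and 1187 CPM after vehicle, and members were above T cells in all 8 libraries. Calcrl, which pairs with Ramp1 to form that receptor, was found in 29.5% against 5.63%, and was also higher in 8 of 8 libraries. The leukotriene B4 receptor Ltb4r1 was found in 71.6% against 22.4%, and the high-affinity IL-2 receptor chain Il2ra in 60.2% against 24.3%.

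Of 39 receptor genes that the definition left out, 28 had a higher share of cells in members than in T cells and 11 a lower one, and 36 were detected. After thinning 22 had the higher share, and 9 had a higher level in at least 6 of 8 libraries. Of all 5426 genes outside the definition that were found in at least 10% of members or of T cells, 58.4% had a higher share in members, 44.0% after thinning, and 9.73% a higher level in at least 6 of 8 libraries, and the counts of this list and of those that follow stand beside these shares as a description. The IL-25 receptor Il17rb was found in 10.2% of members, the TSLP receptor Crlf2 in 28.4% and the IL-18 receptor Il18r1 in 13.6%, the last against 44.0% of T cells. Ptgdr2 (CRTH2) and Nmur1, receptors for prostaglandin D2 and neuromedin U that mark ILC2s in several tissues, were at 0, as was the VIP receptor Vipr2. Thus 2 of the genes often used to identify ILC2s were not detected at this depth. Of a list of 17 ILC2 markers outside the definition, 11 had a higher share in members and 6 a lower one. After thinning 10 had the higher share, and 6 had a higher level in at least 6 of 8 libraries. The tissue-residency receptor Cxcr6 was found in 81.8% of members and 66.0% of T cells, with a level above T cells in 5 of 8 libraries. Icos was found in 38.6% against 44.3%, and the lineage antigen Thy1 in 44 of 88 cells against 81.8%.

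Among 26 transcription factors beside Gata3, 12 had a higher share in members and 14 a lower one (14 higher after thinning), and 6 had a higher level in at least 6 of 8 libraries. Id2, which restrains E proteins in all innate lymphoid cells, was found in 89.8% of members and 69.3% of T cells. Its levels were 1906, 1308, 2931 and 1758 CPM after PBMCsec and 2728, 5085, 1865 and 1547 CPM after vehicle, above T cells in all 8 libraries. Rora was found in 76.1% against 46.2%, Bhlhe40 in 70.5% against 27.4% and the LIM-domain protein Lmo4 in 48.9% against 12.2%. Bcl11b, a T cell and ILC2 factor, was found in 53.4% against 71.6%, and Ets1 in 87.5% against 89.3%.

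Early activation genes formed a further list. Of 34 NF-κB and immediate early genes, 30 had a higher share in members than in T cells, and 29 after thinning. A higher level in at least 6 of 8 libraries was seen for 9, against 9.73% of the 5426 genes above. Junb was found in 92.0% against 69.1%, the NF-κB inhibitor Nfkbia in 75.0% against 50.9%, the nuclear receptor Nr4a1 in 68.2% against 36.7% and the mRNA-decay factor Zfp36 in 71.6% against 40.6%. The summed level of this list ranged from 4274 CPM in PBMCsec library 2 to 35085 CPM in vehicle library 2. Heat shock and dissociation genes, which rise when skin is digested, summed to 15463 CPM in members and 11102 CPM in T cells, and their part in the early gene levels was not tested. Of 23 metabolic genes 20 had a higher share in members, among them Ldha (85.2% against 75.5%) and Gapdh (95.5% against 91.9%). After thinning 18 did, and 4 had a higher level in at least 6 of 8 libraries. Of 23 interferon-stimulated genes 5 had a higher share, and Isg15 was found in 12.5% against 10.7%.

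**Figure D2:**
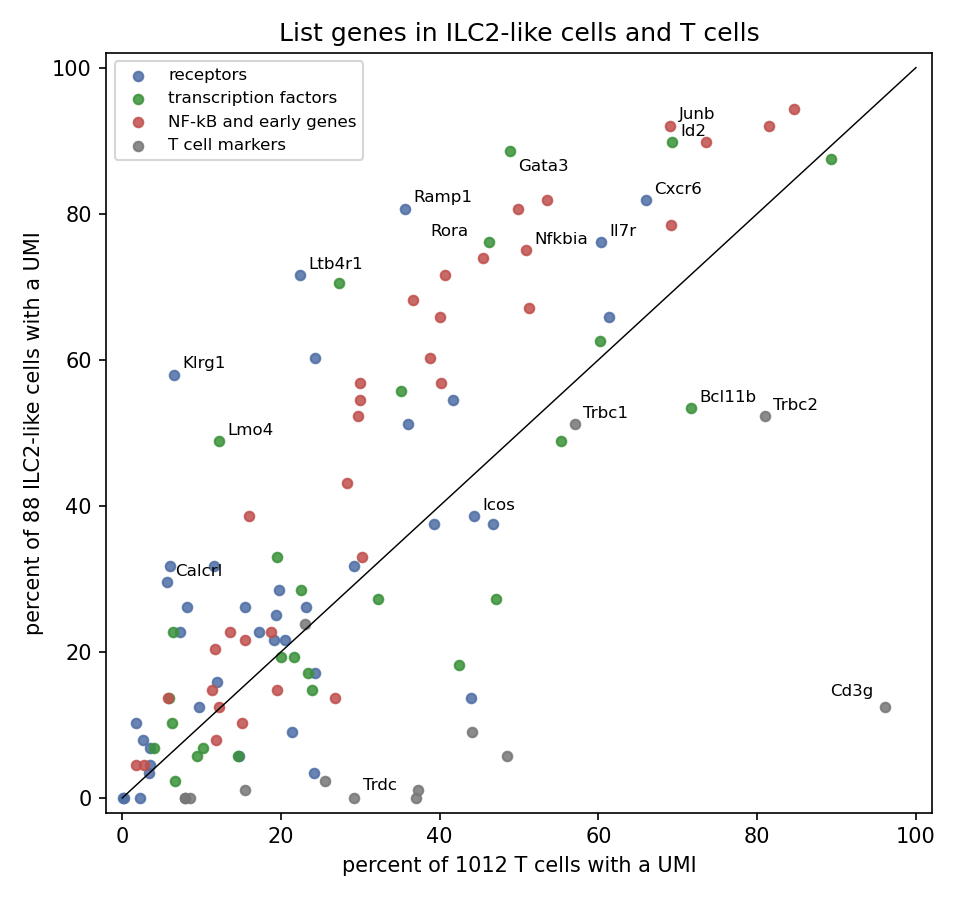
Percent of T cells (x axis) and of ILC2-like cells (y axis) with at least 1 UMI, for receptor, transcription factor, early activation and T cell marker genes other than the defining genes and Cd3e, Cd3d and Trac. Points above the line have the higher share in ILC2-like cells, such as Klrg1 (58.0% against 6.52%). Cd3g lies far below it (12.5% against 96.0%), but it was used to choose the T cells.

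Markers of other cells were checked against the label. Cd3g, left out of the definition of members, was found in 12.5% of members and 96.0% of T cells. It was among the genes that chose the T cells, so its share there was set by that choice. Trdc, Cd4, Cd8a, Cd8b1 and Foxp3 were at 0 in members. The T cell receptor β constant genes Trbc1 and Trbc2 were found in 51.1% and 52.3% of members, against 57.0% and 80.9% of T cells. Their levels were below those of T cells in 8 of 8 libraries, and the origin of these transcripts in members was not tested. Summed over 14 T cell markers the level was 811 CPM in members and 5919 CPM in T cells. The sum includes Cd3g, which was used to choose the T cells and had a mean of 2219 CPM there. Of 13 NK and ILC1 markers 10 were at 0, among them Ncr1, Tbx21, Eomes and Nkg7. Of 9 markers of group 3 cells, 7 had a UMI, and Il22 and Il23r were at 0. Il17a was the most abundant, with 12 UMIs in 2 members, and 3 members held at least 3 of the markers. Their summed level was 112 CPM in members and 313 CPM in T cells. Of 10 mast cell and basophil markers outside the definition 7 were at 0, among them Fcer1a and Ms4a2. The label ILC2-like was kept with these limits.

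The T cell filter divided a larger set of similar cells. A further 119 cells met all other conditions but held a UMI of Cd3e, Cd3d or Trac, 73 of them of all 3 genes. Of these cells 47.1% held Il13 and 33.6% Il5, while 58.8% held Cd4, 71.4% Icos and 14.3% Foxp3. Csf2 was found in 22.7% of them, against 51.1% of members, and Klrg1 in 22.7%, against 58.0%. Il5 was also lower than in members (33.6% against 58.0%), and so was Il1rl1 (74.8% against 83.0%). Gata3 (89.1% against 88.6%) and Areg (52.1% against 52.3%) were close to members. Il13 (47.1% against 33.0%) and Calca (33.6% against 20.5%) were higher in these 119 cells than in members. When Cd3g, Trbc1, Trbc2, Trdc and Tcrg-C1 were also required at 0, 26 of the 88 members remained.

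Unsupervised clustering placed 77 of the 88 members (87.5%) in 1 cluster of 363 cells, of which 60.6% met the T cell definition. The leading named genes of that cluster were Il7r, Blk, Cxcr6, Trdc, Ltb, Tcrg-C1, Il18r1, Actn2 and Cd3g, so it was led in part by T cell receptor genes. In the members themselves Trdc was at 0, Tcrg-C1 was found in 2.27% and Cd3g in 12.5%. The other 11 members were spread over a Ctla4 and Icos T cell cluster (4 cells), a Cd209a and Mgl2 cluster (4 cells) and 3 keratinocyte clusters (1 cell each). These 11 cells carried 1746 of the 1807 macrophage and dendritic cell marker UMIs of all members and 1446 of the 1614 keratinocyte marker UMIs. Of the macrophage and dendritic cell list, 12 of 16 counted genes had a UMI, Cd74 was the most abundant, and C1qb, C1qc, Fcgr1 and Cd207 were at 0. Its summed level in members was 21868, 63.8, 6306 and 0 CPM after PBMCsec and 72.3, 134, 6035 and 60.0 CPM after vehicle. Keratinocyte markers, all 14 with a UMI and Krt10 the most abundant, summed to 212, 63.8, 637 and 1130 CPM after PBMCsec and to 163, 268, 17734 and 2758 CPM after vehicle. A single cell of vehicle library 3 held 97.4% of all Krt10 UMIs. No doublet caller was run.

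Within the main cluster, the genes that stood highest against T cells, by mean CPM over libraries with a prior of 10 CPM, were led by Ccdc184 (252 against 7.24 CPM), the chemokine Cxcl2 (718 against 38.6 CPM), the protease genes Bace2 (162 against 4.20 CPM) and Pcsk1 (339 against 22.0 CPM), and Mctp1 (115 against 2.17 CPM). Ccdc184 was found in 59.7% of the 77 cells and was above T cells in 8 of 8 libraries, as were Pcsk1, the amino acid transporter Slc7a8, Klrg1 and Stc2. Pcsk1, which encodes a prohormone convertase, was found in 50.6% of these cells and in 4.15% of T cells. The serotonin receptor Htr1b was found in 13.0% and was at 0 in the 1012 T cells. Taken over all 88 members, the list was instead led by Lyz1, Retnla, Lyz2 and Tchh, each with a UMI in at most 7 members and with 10.7 CPM or less in the main cluster.

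The number of ILC2-like cells was compared between treatments first. Of all filtered cells in a library, they were 0.648%, 0.756%, 0.868% and 0.125% after PBMCsec (7 of 1080, 4 of 529, 22 of 2534 and 2 of 1600 cells). After vehicle they were 3.46%, 1.22%, 0.482% and 1.32% (11 of 318, 5 of 409, 14 of 2903 and 23 of 1745 cells). Vehicle library 3 was below 3 of the 4 PBMCsec libraries, and the other vehicle libraries were above all of them. Means were 0.599% ± 0.329 for PBMCsec and 1.62% ± 1.28 for vehicle (SD, n = 4 each), and the difference of -1.02 percentage points did not pass the two-sided exact permutation test over mice (p = 0.114, smallest possible 0.0286). Without vehicle library 3, the library with the most cells, the difference was -1.40 points (exact permutation p = 0.0286), and without vehicle library 1 it was -0.41 points (exact permutation p = 0.229). Among libraries numbered 1 and 2 it was -1.64 points and among those numbered 3 and 4 it was -0.40 points.

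Against immune cells alone the picture was similar. Members made up 2.34%, 1.29%, 4.03% and 0.741% of cells with a Ptprc UMI after PBMCsec and 7.38%, 3.40%, 3.05% and 8.65% after vehicle. The means were 2.10% ± 1.45 and 5.62% ± 2.82 (SD, n = 4 each), a difference of -3.52 points (exact permutation p = 0.0857). Per 100 T cells there were 4.93 ± 3.21 ILC2-like cells after PBMCsec and 13.6 ± 7.87 after vehicle (exact permutation p = 0.0857, n = 4 each). Under the stricter T cell filter, with 26 cells left, the difference in the share of all cells was -0.12 points (exact permutation p = 0.80). Shares of cells depend on how many other cells survived digestion, and the part of this in the shares was not tested. The 10% mitochondrial limit was exceeded by 10422 of 26231 barcodes. At the study's stricter limit of 5%, which left 75 members, the difference was -2.22 points of all cells (0.861% against 3.08%, exact permutation p = 0.114) and -5.43 points of Ptprc cells (2.60% against 8.02%, exact permutation p = 0.0571).

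**Figure D3:**
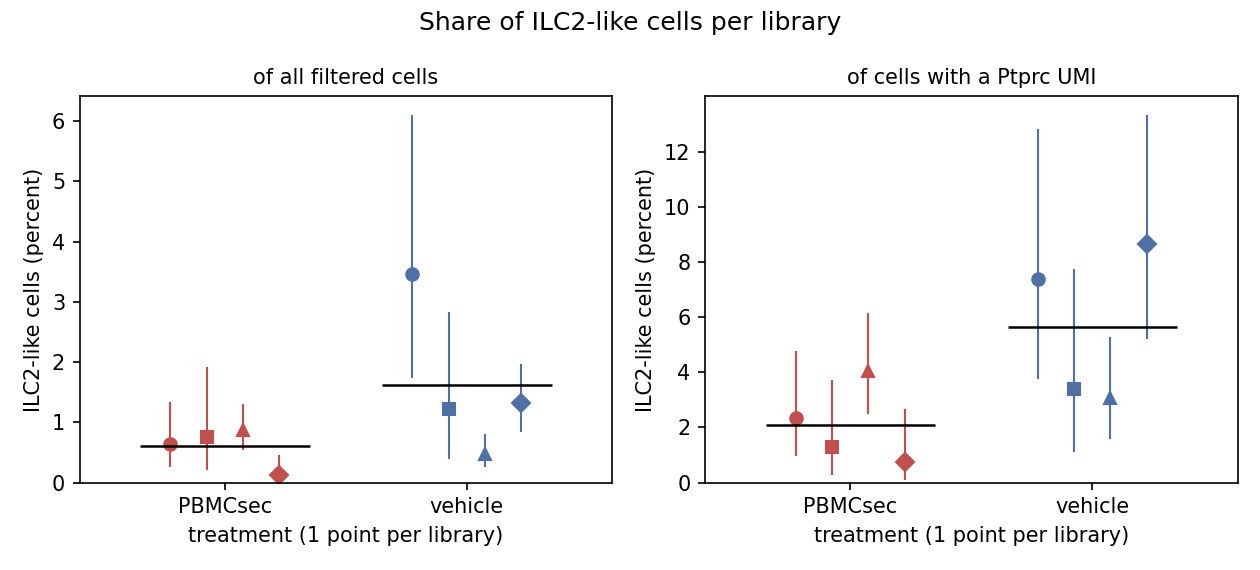
Share of ILC2-like cells per library (points, circle, square, triangle and diamond for libraries 1 to 4) among all filtered cells (left) and among cells with a Ptprc UMI (right), with 95% Clopper-Pearson intervals and group means (black lines). Vehicle library 1 is highest on the left at 3.46%, and the groups overlap in both panels.

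The level of each secreted product or receptor was then compared in cells chosen without that gene, so that the choice could not fix the value. Il1rl1 was at 1667, 386 and 714 CPM in PBMCsec libraries 1 to 3 (no such cell in library 4) and at 974, 375, 415 and 472 CPM after vehicle. These groups overlapped (log2 difference 0.57, exact permutation p = 0.429, n = 3 and 4), and the difference was 0.02 without PBMCsec library 1 and 1.06 without PBMCsec library 2. Il13 was at 134, 63.8, 1850 and 0 CPM after PBMCsec and at 199, 1552, 439 and 288 CPM after vehicle (log2 difference -1.95, exact permutation p = 0.314, n = 4 each). Its means were 512 and 619 CPM, and the difference was -2.81 with a prior of 1 CPM and -0.95 with one of 100 CPM. Here PBMCsec library 3 held the highest value of all and the other PBMCsec libraries the 3 lowest. Without that library the log2 difference was -3.27 (exact permutation p = 0.0286), and without PBMCsec library 4 it was -0.76 (exact permutation p = 0.60).

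Il5 was at 556, 85.8, 409 and 0 CPM after PBMCsec and at 235, 616, 219 and 228 CPM after vehicle (log2 difference -1.30, exact permutation p = 0.40, n = 4 each). The difference was -0.09 without PBMCsec library 4 and -2.04 without PBMCsec library 1. For Il5 it was -2.13 with a prior of 1 CPM and -0.50 with one of 100 CPM. Csf2 was at 1244, 31.9, 3724 and 0 CPM after PBMCsec and at 668, 2114, 1506 and 1475 CPM after vehicle (log2 difference -2.67, exact permutation p = 0.343, n = 4 each). Its means were 1250 and 1441 CPM, and PBMCsec libraries 2 and 4, the lowest, had 4 and 2 such cells. It was -3.58 with a prior of 1 CPM and -1.50 with one of 100 CPM, and ran from -4.06 to -1.21 when 1 library was left out. Areg was at 370, 0, 1102 and 0 CPM after PBMCsec and at 1499, 2997, 468 and 699 CPM after vehicle (log2 difference -3.79, exact permutation p = 0.114, n = 4 each). PBMCsec library 3 lay among the vehicle libraries and the libraries at 0 had 3 and 2 such cells. In vehicle library 2, the highest, 1 cell held 99 of the 112 Areg UMIs. The size of the difference depended on the prior, with -5.45 at 1 CPM and -2.16 at 100 CPM. Without PBMCsec library 3 the log2 difference of Areg was -5.05 (exact permutation p = 0.0286), and without PBMCsec library 2 or 4 it was -2.78 (exact permutation p = 0.171).

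Calca was at 381, 95.7, 928 and 0 CPM after PBMCsec and at 18.1, 0, 41.1 and 120 CPM after vehicle (log2 difference 1.92, exact permutation p = 0.314, n = 4 each). In PBMCsec library 3, the highest, 1 cell held 37 of the 75 Calca UMIs. The difference was 1.01 without PBMCsec library 3 and 3.20 without PBMCsec library 4. For Calca it was 2.12 with a prior of 1 CPM and 1.18 with one of 100 CPM. After adjustment over the 7 genes all p-values were 0.429. In libraries with at least 5 such cells, 2 after PBMCsec and 4 after vehicle, the Calca difference was 4.03 (exact permutation p = 0.0667, the smallest that 2 against 4 allows), and Il13, Il5 and Csf2 changed sign, to 0.18, 0.69 and 0.69. That of Areg was -0.78 in these libraries (exact permutation p = 0.467).

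**Figure D4:**
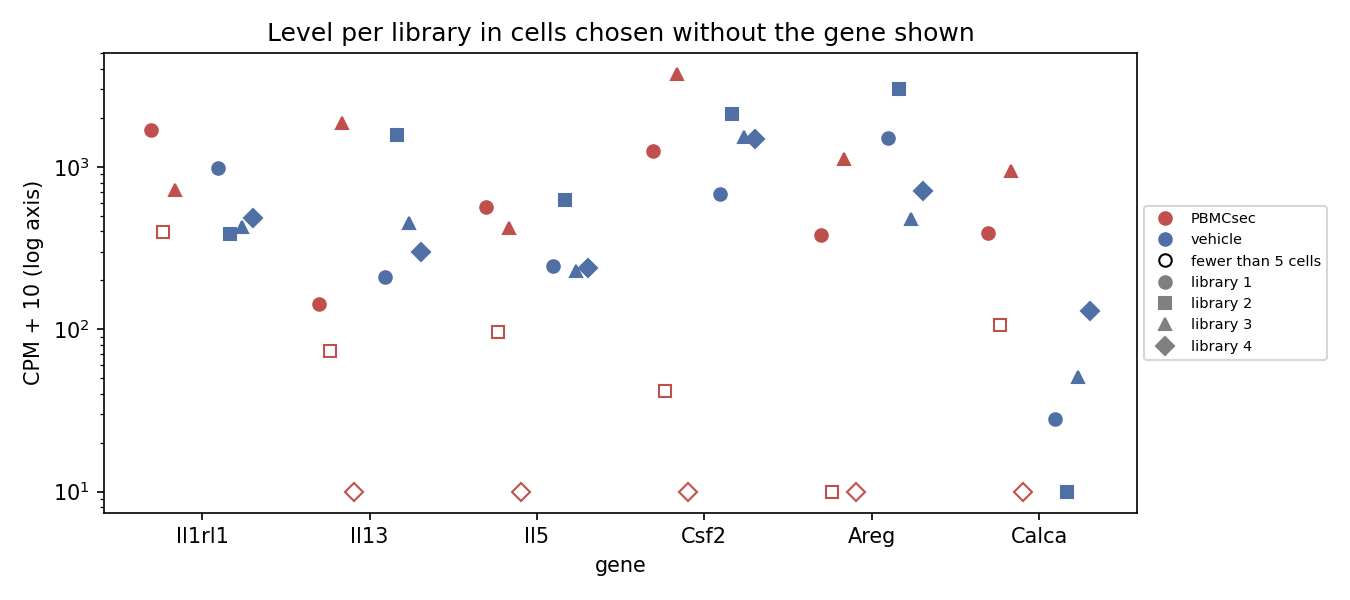
Level of 6 defining genes per library (CPM + 10, log axis) in cells chosen without the gene shown, with open symbols for fewer than 5 cells. The groups overlap for all 6 genes, and Calca reaches 928 CPM in PBMCsec library 3 against at most 120 CPM after vehicle.

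Transcripts across the genome were compared with edgeR on counts summed over the members of a library. Libraries with fewer than 5 members were left out, so PBMCsec libraries 1 and 3 stood against 4 vehicle libraries. Of 1279 genes tested, 0 passed an adjusted p of 0.05 (0.0%), while at an unadjusted p under 0.05 88 were higher after PBMCsec (6.88%) and 48 lower (3.75%). With no filter on low counts, 310 of 11322 genes were higher and 323 lower at that p. Without it, 39 genes outside the definition were called higher and 30 lower at the adjusted threshold. With the filter, a gene could be tested through high counts in PBMCsec libraries 1 and 3 alone. The direction of the calls given next therefore depends on the filter. DESeq2 called 7 of the same 1279 genes, all higher (0.547%), and edgeR called 7 of 854, all higher, when the 77 main-cluster cells were used alone (0.82%). In each of these fits 1 of the 7 was Calca, which had entered the choice of members and is not counted as a result, leaving 6. Of these 6, Ero1l, Hsph1, Isy1, Kdm6b and Sub1 were called in both fits. Both fits use the same libraries, so a shared call is no second test. Hsph1, Isy1 and Kdm6b entered only through PBMCsec libraries 1 and 3, and their calls are given as a description. The number of calls changed with the libraries included. Without vehicle library 3, which held 3 of the members outside the main cluster, 14 genes beside Calca were called, all higher, and 5 of them were on the list of macrophage and dendritic cell markers (Cd74, H2-Aa, H2-Ab1, H2-Eb1 and Lyz2). Without PBMCsec library 3 the calls were Klf2 and Wfdc17, and without any other single library of the comparison 0 genes were called. With all 8 libraries, 0 of 642 genes passed.

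The splicing factor Isy1 was at 503, 0, 300 and 0 CPM after PBMCsec and at 18.1, 26.8, 54.9 and 60.0 CPM after vehicle. It was high in PBMCsec libraries 1 and 3 and had no UMI in the 4 and 2 members of libraries 2 and 4. In edgeR, over the libraries with at least 5 members, its log2 fold change was 3.08 ± 0.54 (SE, adjusted p = 0.13). With at most 60.0 CPM after vehicle, Isy1 entered the test only through PBMCsec libraries 1 and 3, where it was high. Kdm6b and Hsph1 entered in the same way, so these fold changes are given as a description. The histone H3K27 demethylase Kdm6b was at 450, 95.7, 468 and 0 CPM against 54.2, 80.3, 82.3 and 12.0 CPM, a log2 fold change of 3.01 ± 0.55 (SE). PBMCsec library 4, with 2 members, was the lowest. Nr3c1, the glucocorticoid receptor, was at 1403, 63.8, 913 and 377 CPM against 343, 214, 302 and 156 CPM, a log2 fold change of 2.13 ± 0.43 (SE), with PBMCsec library 2 below every vehicle library. With all 8 libraries its log2 fold change was 1.53 ± 0.68 (SE), and with libraries of at least 4 members 1.64. The co-chaperone Hsph1 (log2 fold change 2.98 ± 0.54) had 40.3% of its 62 UMIs in 1 cell of PBMCsec library 1. Without that library its log2 fold change was 2.18.

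The 5 genes with the smallest p among those lower after PBMCsec were Uqcr11, Ubl5, Cbx3, Plp2 and Ift20, with log2 fold changes from -1.70 to -2.52 and adjusted p-values from 0.334 to 0.364 in edgeR. Uqcr11, a subunit of respiratory complex III, was at 26.5, 319, 36.0 and 126 CPM after PBMCsec and at 181, 107, 233 and 204 CPM after vehicle. The tested PBMCsec libraries 1 and 3 were the lowest, and library 2, which was not tested, was the highest. The heterochromatin protein gene Cbx3 was at 79.4, 287, 48.0 and 126 CPM against 217, 134, 247 and 264 CPM, again with PBMCsec library 2 the highest. With all 8 libraries the log2 fold changes were smaller, at -0.88 for Cbx3, -0.59 for Ubl5 and -0.61 for Plp2, against -1.89, -1.74 and -1.70. With libraries of at least 4 members that of Uqcr11 was -0.84, against -2.48.

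Ramp3, another partner of Calcrl, was at 741, 0, 420 and 0 CPM after PBMCsec and at 0, 321, 82.3 and 24.0 CPM after vehicle. It was highest in PBMCsec libraries 1 and 3, and its log2 fold change was 2.58 ± 0.90 (SE, edgeR adjusted p = 0.408). Ramp3 entered this test only through those PBMCsec libraries, where it was high, so its fold changes in members are given as a description. The log2 fold change of Ramp3 was 3.54 with the replicate block and ran from 2.17 to 3.81 when 1 library was left out. Ramp1 had a log2 fold change of -0.63 ± 0.43 (SE, edgeR adjusted p = 0.664). In the T cells Ramp3 had a log2 fold change of 1.49 ± 0.32 (SE) and Calca one of 1.52 ± 0.46 (SE), and 0 of 5538 genes were called there by edgeR or DESeq2 (0.0%; without adjustment, 51 were lower and 71 higher at p under 0.05). In T cells, where equal library numbers paired the libraries, the fit with the number as a block called 4 genes, all higher (0.0722%): Hbb-bs, Ccl5, Isg15 and Ier3. Hbb-bs, Ccl5 and Isg15 were not tested within ILC2-like cells, where they had a UMI in 12.5%, 5.68% and 12.5% of members, and Ier3 had one in 22.7%. The test of the difference in treatment effect between ILC2-like cells and T cells called 0 of 4816 genes in edgeR (0.0%; without adjustment, 111 were lower and 167 higher in ILC2-like cells at p under 0.05), with a difference of 1.04 for Ramp3 on the log2 scale. That difference was -1.23 for Hbb-bs, -2.38 for Ccl5 and -0.47 for Isg15.

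In the edgeR comparison of PBMCsec libraries 1 and 3 with the 4 vehicle libraries, over all members, no gene of any list passed the adjusted threshold. Genes that entered the definition are left out of these counts. A gene could be tested through high counts in PBMCsec libraries 1 and 3 alone, as the receptor gene Ramp3 was. The counts and medians of the lists are therefore given as a description. Of 12 receptor genes tested 8 were higher after PBMCsec and 4 lower, with a median log2 fold change of 0.53, and 3 were higher at an unadjusted p under 0.05. Over all 1269 such genes 594 were higher and 675 lower (median -0.05), and 86 were higher and 48 lower at that p. Of 12 transcription factors 7 were higher and 5 lower, with a median of 0.15, and 3 were higher at that p. Of 10 ILC2 markers 6 were higher and 4 lower, with a median of 0.61, and 3 were higher and 1 lower at that p. Gata3, which entered the definition, was at 2356, 829, 1850 and 879 CPM after PBMCsec and at 1102, 1392, 521 and 744 CPM after vehicle, given as a description. PBMCsec libraries 1 and 3 held its highest values and the groups overlapped. Of 24 early activation genes 9 were higher and 15 lower (median -0.17), but the 5 at that p were all higher. Of 14 metabolic genes 9 were higher (median 0.40), 4 of them at that p, and of 14 stress genes 9 were higher (median 0.36), 2 of them at that p. The list medians of other cell types were far from 0, at 3.35 for 5 macrophage and dendritic cell markers and -4.30 for 5 keratinocyte markers. These came with the few members outside the main cluster, 2 and 3 in PBMCsec libraries 1 and 3, 3 in vehicle library 3 and 1 in vehicle library 4.

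**Figure D5:**
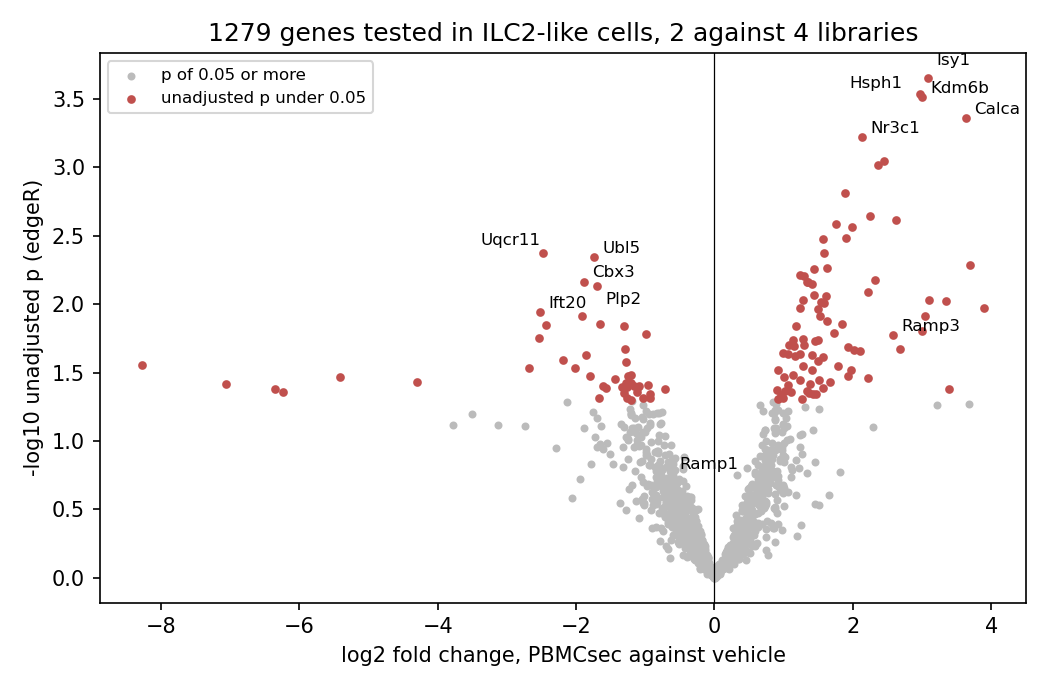
Log2 fold change after PBMCsec against vehicle (x axis) and -log10 of the unadjusted edgeR p (y axis) for 1279 genes in ILC2-like cells, from 2 PBMCsec and 4 vehicle libraries. Isy1, Hsph1, Kdm6b and Nr3c1 are among the 5 genes with the smallest p-values, the other being Calca, which entered the definition, and no gene passes the adjusted threshold.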

How the data were processed

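Dorsal skin libraries of 8 mice were used, 4 per treatment. The files deposited by the authors hold raw counts of UMIs for each gene and barcode, made with Cell Ranger on mm10. The paper gives version 4.0, and the submitters' processing notes and the file headers give 3.0.2. Following the study, Gm42418, Gm26917 and Gm17056 were dropped. The mitochondrial limit was 10%, with the study's 5% as an alternative. The members and gene lists were chosen with earlier results of these data known. Cells were normalized to 10000 UMIs and clustered with scanpy 1.11.5 (2000 variable genes, 30 components, 15 neighbours, Leiden resolution 1). Single values were compared on log2(CPM + 10), or as shares, with two-sided exact permutation tests over mice (scipy 1.17.1). Counts were summed per library with at least 5 members and entered edgeR 4.0.16 under R 4.3.3, with filterByExpr, TMM factors, the quasi-likelihood test and p-values adjusted by Benjamini-Hochberg, with DESeq2 1.42.0 as an alternative. Library CPM in the text are scaled to total UMIs. In simulated data at the 1279 genes, 65% of 4-fold and 89% of 8-fold changes were called, together with 4 unchanged genes. The simulation gave every gene the same spread between libraries. In the data single cells held much of some genes, such as 40.3% of the Hsph1 UMIs. These shares therefore cannot show which changes the real comparison could find. Genes were named by a rule: the defining genes, the 4 highest genes of each list and any called, the 5 smallest p each way (of which Calca, a defining gene, is given no fold change), the genes highest against T cells, and Ramp3, Calcrl, Ramp1, Isg15, Plac8, Ccl5 and Hbb-bs, noticed in earlier results. Other genes named were chosen after their values were seen. Equal library numbers paired the T cells (correlation of deviations across genes 0.32, 0.27, 0.27 and 0.45 for numbers 1 to 4). Because counts were not compared per transcript length, levels of single genes are compared within a gene. The most abundant gene of a list was named by its UMIs alone. The values of 1 defining gene are not reported here.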

Additional observations from a re-analysis of the deposited data

Results flagged for a closer look

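Of 44 groups of libraries tested with Dixon's criterion, which flags about 1 in 20 by chance, 3 held a library far from the others. In cells chosen without the gene, Il13 was at 1850 CPM in PBMCsec library 3 and at most 134 CPM in the other PBMCsec libraries. Il1rl1 was at 974 CPM in vehicle library 1 and between 375 and 472 CPM in the other vehicle libraries. Il5 was at 616 CPM in vehicle library 2 and between 219 and 235 CPM in the others.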

How the results depend on the processing

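The share of all cells and of Ptprc cells stayed lower after PBMCsec in every alternative run, and passed p under 0.05 in 1, the share of all cells without vehicle library 3 (-1.40 points). At a mitochondrial limit of 5%, the study's own, the differences were -2.22 and -5.43 points. Leaving out 1 library gave -1.40 to -0.41 points for all cells and -4.38 to -2.51 points for Ptprc cells, and with the replicate block the differences were -1.02 and -3.52 points (exact permutation p = 0.25 each). The edgeR count of genes called in members was 0 and became 7 with DESeq2, 70 of 11322 with no filter on low counts (40 higher, 30 lower), 4 with at least 3 defining genes, 7 in the main cluster and 36 of 855 in libraries numbered 1 and 2 alone (20 higher, 16 lower), and 0 to 15 when a library was left out (2 without PBMCsec library 3, 15 without vehicle library 3). Without the defining genes these counts were 6, 69, 3, 6, 34, 2 and 14 in the same order. The replicate block, libraries numbered 3 and 4 alone (1867 genes), the other definitions and the added fits with all 8 libraries or at least 4 members, chosen after the data were seen, also gave 0. Fits with 1 PBMCsec library assume that it varies like the vehicle libraries. By library number, the correlations of members were 0.15, -0.11, -0.06 and 0.20. With 2 to 23 members per library these cannot show whether the numbers paired them, as they did the T cells. In T cells 4 genes were called with the block and 38 of 15288 with no filter. In libraries with at least 5 cells, an alternative added after the data were seen, Il13, Csf2 and Il5 reversed to 0.18, 0.69 and 0.69, and Areg was at -0.78. Without PBMCsec library 3, Il13 (-3.27) and Areg (-5.05) passed the exact permutation test before adjustment (p = 0.0286 each), while leaving out other libraries gave up to -0.76 and -2.78. Thinning lowered the share of members with a UMI for all 6 defining genes described, to between 13.8% (Calca) and 47.1% (Il1rl1). Of the genes outside the definition, 11 were followed through the alternatives: those with the smallest p each way, Ramp1 and Ramp3. They kept their direction in all 168 alternatives that gave a value. They were past the threshold in 20, fits with 1 PBMCsec library among them. Most were chosen by p and many alternatives reuse the same libraries, so the direction was largely set beforehand. Isy1, Hsph1 and Kdm6b gave no value with all 8 libraries. The causes were not tested. With 88 cells, and 2 to 23 per library, single transcripts decide many values.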
